A study of Mus musculus with 24 samples.

Results

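The genes described here are 50 genes of the mitotic spindle and of the G2/M transition, chosen by symbol from a table of 12010 genes measured in 8 lines of B16-F10-luc2 cells, a mouse melanoma line that carries a luciferase reporter. All 50 were in the table. The rule takes no measured value, but the genes were proposed with earlier results of these data known. The parental cells were wild type. The MITF KO line carried a frameshift in Mitf, and the study's blots left a weak band in it that may be truncated MITF. TFE3 KO, TFEB KO and TFEB/TFE3 double KO (DKO) lines were made from parental cells with CRISPR-Cas9 and a guide for each gene. The MITF/TFE3 DKO, the MITF/TFEB DKO and the MITF/TFEB/TFE3 triple KO (TKO) were made from the MITF KO cells, so that these lines share its Mitf allele. The knockouts were isolated as clones, so an effect of a lost gene and a property of the clone cannot be told apart. All lines were grown in the same medium with serum and sequenced as 3 libraries each.

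MITF, TFEB and TFE3 are related transcription factors with a basic helix-loop-helix leucine zipper that bind E-box sequences, and MITF is the factor that defines the melanocyte lineage. Genes of G2 and mitosis are switched on late in the cell cycle by the MuvB complex with B-MYB and FOXM1 and are held off in resting cells by the DREAM complex, through promoter elements called CHR and CCAAT boxes, the latter bound by NF-Y. CDK1 with cyclin B drives entry into mitosis. The spindle checkpoint then holds the anaphase promoting complex back until kinetochores are attached, the chromosomal passenger complex and kinesins build the spindle midzone for cytokinesis, and condensin and topoisomerase II compact and untangle the chromosomes. In a culture, the messenger RNA of these genes is carried mainly by the cells in late S phase, G2 and mitosis. In these bulk libraries, fewer cells in those phases and less RNA in each of them cannot be told apart.

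The libraries held 18300902 to 26667877 reads on genes, and every member had at least 94 reads in every library. Values are read counts divided by the depth of the library and scaled by the TMM method (CPM), and because each transcript is counted once at its 3′ end, levels can be set side by side between genes without a length. All 6 melanocyte markers (Pmel, Dct, Tyrp1, Tyr, Mlana and Sox10) were present, with a summed value of 25336 to 26190 in parental cells. The sum was 36942 to 38963 in the MITF KO, 16572 to 19046 in the MITF/TFEB DKO and 15500 to 16529 in the TKO. The other lines lay between 25583 and 31498. Dct made up most of the sum (mean 17751 in parental cells), and single markers could differ from it. Of the 6, the MITF KO had 2 higher and 1 lower than parental cells (limma, adjusted p under 0.05). The lower one was Mlana, with a mean of 488 against 799. TKO and MITF/TFEB DKO each had 1 higher, Sox10, and 5 lower. Tyr fell furthest, from a mean of 131 to 8.35 and 12.8 in that order. Fibroblast markers (2 of 5 in the table) summed to at most 45.3 and immune markers (2 of 5) to at most 5.12. The only endothelial marker in the table, Pecam1, was at most 31.6, and the only keratinocyte marker, Krt14, was at 0 in all 3 parental libraries, at 6.51 to 8.98 in the MITF/TFEB DKO, at 16.1 to 19.3 in the TKO and at most 0.161 elsewhere. The part of the markers in any result below was not tested. Tfe3 and Tfeb RNA were lower in each line in which they were targeted. Tfe3 fell least in the TKO, to 17.6 to 21.7 against 35.4 to 38.4 in parental cells. It was 8.01 to 14.4 in the other lines with TFE3 targeted. Mitf RNA was 1358 to 1470 in the MITF KO against 763 to 797 in parental cells. It was 1101 to 1268 in the MITF/TFE3 DKO, 544 to 603 in the MITF/TFEB DKO and 326 to 350 in the TKO. A count at the 3′ end does not check a frameshift.

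The promoters of the members show the elements by which this programme is known. RefSeq windows from 250 bases before to 50 bases after a start site (table build GRCm38.p6) were found for 41 of the 50 members. On either strand, a CHR (TTTGAA or TTCGAA) lay in the windows of 31 of these (75.6%), against 16.1% of the 9647 genes of the table with a window and 19.2% of all 32851 windows. A CCAAT box (CCAAT) lay in those of 30 (73.2%), against 43.5% and 37.4%. An E-box (CACGTG or CATGTG), the kind of sequence that MITF, TFEB and TFE3 bind, lay in those of 6 (14.6%), against 20.6% and 20.4%. Both a CHR and a CCAAT box in 1 window were found for 27 members (65.9%), against 6.85% and 7.52%. The 6 stretches below run from 150 bases before to 30 bases after the start of the window's gene, each matched to GRCm39, and show members whose values are followed through the text; capitals mark the CHR and the CCAAT box, read as TTCAAA and ATTGG where they lie on the other strand. Ube2c (chr2:164611699-164611878, plus strand), Cdk1 (chr10:69188713-69188892, minus), Cenpa (chr5:30824080-30824259, plus) and Prc1 (chr7:79944049-79944228, plus) hold both. Kif20b (chr19:34899608-34899787, plus) holds a repeated CHR and no CCAAT box. Pttg1 (chr11:43316779-43316958, minus) holds neither in a window that lies 285 bases from its canonical start.
Ube2c: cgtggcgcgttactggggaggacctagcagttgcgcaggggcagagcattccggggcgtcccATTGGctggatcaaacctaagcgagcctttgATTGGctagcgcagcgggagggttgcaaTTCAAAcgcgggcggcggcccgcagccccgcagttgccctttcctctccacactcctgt
Cdk1: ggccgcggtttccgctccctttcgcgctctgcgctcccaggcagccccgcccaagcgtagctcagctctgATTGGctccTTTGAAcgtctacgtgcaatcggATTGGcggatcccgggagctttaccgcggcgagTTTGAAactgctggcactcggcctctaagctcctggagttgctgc
Cenpa: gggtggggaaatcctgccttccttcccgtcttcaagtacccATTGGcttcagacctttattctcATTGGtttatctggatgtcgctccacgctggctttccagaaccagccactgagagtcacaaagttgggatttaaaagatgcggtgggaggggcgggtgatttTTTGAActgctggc
Prc1: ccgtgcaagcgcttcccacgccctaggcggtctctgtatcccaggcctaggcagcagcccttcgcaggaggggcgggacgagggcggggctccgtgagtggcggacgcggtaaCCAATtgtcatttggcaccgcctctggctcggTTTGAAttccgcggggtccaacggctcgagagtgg
Kif20b: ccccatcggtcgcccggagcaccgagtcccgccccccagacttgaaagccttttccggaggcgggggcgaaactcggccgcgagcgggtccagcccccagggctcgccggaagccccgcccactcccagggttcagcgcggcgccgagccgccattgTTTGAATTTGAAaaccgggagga
Pttg1: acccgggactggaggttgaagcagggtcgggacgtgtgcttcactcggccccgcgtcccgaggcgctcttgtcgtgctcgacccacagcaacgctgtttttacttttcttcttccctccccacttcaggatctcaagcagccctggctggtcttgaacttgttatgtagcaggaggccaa

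As a group, the 50 genes were lower in the lines that lacked MITF alone or MITF with 1 relative, and stood near the parental level again in the line that lacked all 3 factors. In parental cells their means ran from 13.1 for Cks2 to 1126 for Top2a, with a median of 139. The mean log2(CPM + 1) over the 50 genes was 7.01 ± 0.0155 (SD, n = 3 libraries) in parental cells. The MITF KO had 6.70 ± 0.0632, its double KO with TFE3 6.61 ± 0.0489 and that with TFEB 6.58 ± 0.0278, with no library of these lines reaching a parental one. The TKO had 7.05 ± 0.00835. Of the lines that kept MITF, the TFE3 KO had 7.13 ± 0.0473 and the TFEB KO 7.03 ± 0.0349, against 6.89 ± 0.0661 when both were lost. The place of the TKO depends on the measure. Its mean over the 50 genes was 0.043 above the parental mean, while its median level over the genes was 0.43 below (difference in log2, −0.43). In the MITF/TFEB DKO the mean was 0.42 below (−0.42) and the median level 0.71 below (−0.71). A difference between 2 median levels can set different genes side by side, so it is not the median change of the members. That median log2 fold change was 0.035 in the TKO, with 29 of 50 above 0, and −0.41 in the MITF/TFEB DKO.

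**Figure D1:**
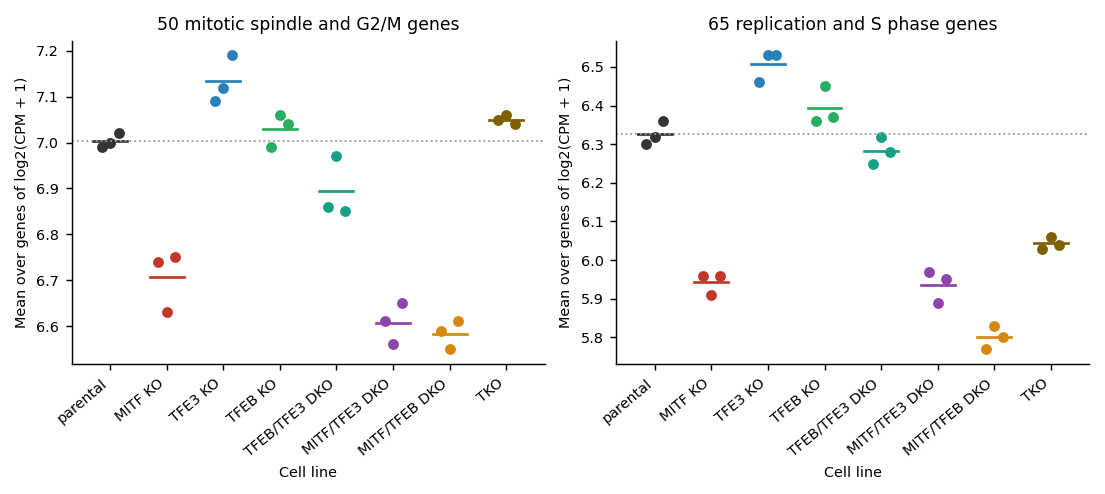
Mean log2(CPM + 1) in each of the 24 libraries, for the 50 members and for 65 genes of DNA replication and S phase; points are libraries, grouped by line. The members sit at 6.99 to 7.02 in parental cells, at 6.55 to 6.75 in the MITF KO and both MITF double KOs, and at 7.04 to 7.06 in the TKO.

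The MITF KO was compared with parental cells first. With limma and an adjusted p under 0.05 over all 12010 genes, 24 of the 50 members were lower and 1 was higher, where 17.8% of all genes were lower and 20.1% higher. The median log2 fold change of the members was −0.33 against 0.00059 over all genes. The largest fall was that of Cenpa, the histone H3 variant that marks centromeres, at 73.7, 55.5 and 71.2 in the MITF KO against 116, 126 and 152 in parental cells (log2 fold change −0.97 ± 0.192, SE, adjusted p = 3.5e-04). Bub1b, the checkpoint kinase-like protein BubR1, stood at 47.1, 47.8 and 64.7 against 75.6, 87.5 and 105 (−0.74 ± 0.153, adjusted p = 5.2e-04). Ndc80, which holds microtubules at the kinetochore, was the only member that rose, at 85.9, 83.5 and 87.7 against 61.8, 61.7 and 60.6 (0.48 ± 0.0786, adjusted p = 4.6e-05). No member changed by at least 2-fold with an unadjusted p under 0.05, the threshold used in the study, which 6.28% of all genes passed in either direction.

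Loss of TFE3 or TFEB alone left most members near their parental values. In the TFE3 KO, 3 members were higher and none lower (4.50% of all genes were higher and 7.78% lower), with a median of 0.11. The 3 were Mad2l1, a checkpoint protein, at 52.9, 72.6 and 65.9 against 38.3, 39.0 and 48.9 (0.59 ± 0.183, adjusted p = 0.0392), Foxm1 (0.32 ± 0.102, adjusted p = 0.0397) and the condensin subunit Ncapg (0.27 ± 0.0835, adjusted p = 0.0350). In the TFEB KO, 0 members were called by limma or by edgeR, where limma called 2.25% of all genes higher and 2.59% lower. By the looser rule of an unadjusted p under 0.05 there were 7, and the share of all genes under that rule was not counted. In the TFEB/TFE3 DKO, 3 members were lower and none higher (4.72% of genes higher, 4.09% lower). These were Cks1b, a subunit of CDK complexes (272, 309 and 282 against 365, 382 and 374, log2 fold change −0.38 ± 0.108, adjusted p = 0.0296), Bub3 (−0.30 ± 0.0861, adjusted p = 0.0311) and Birc5 (−0.29 ± 0.0831, adjusted p = 0.0311). The calls in the TFE3 KO and the TFEB/TFE3 DKO rest on single libraries. The number changed in the TFE3 KO was 0 without its library 2 or parental library 2 and 7 without its library 1, and that in the TFEB/TFE3 DKO was 0 without its library 1 or 3 or parental library 2 or 3 and 6 without its library 2. No member passed the 2-fold threshold in these 3 lines, where 1.71%, 0.783% and 0.958% of all genes did.

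In both double KOs without MITF most members were lower. In the MITF/TFE3 DKO, 32 were lower and none higher (21.7% of all genes lower, 20.2% higher), with a median of −0.35. The proliferation marker Mki67, which coats mitotic chromosomes, was at 75.4, 110 and 133 against 258, 254 and 260 in parental cells (−1.31 ± 0.151, adjusted p = 4.4e-07), and Plk4, the kinase that starts centriole duplication, at 25.0, 26.1 and 27.8 against 52.1, 55.7 and 48.6 (−0.96 ± 0.114, adjusted p = 6.3e-07). In the MITF/TFEB DKO, 31 were lower and 3 higher (27.3% and 28.8% of all genes), with a median of −0.41. Here Cdc25b, a phosphatase that activates CDK1, was at 69.3, 61.0 and 56.8 against 158, 166 and 140 (−1.30 ± 0.104, adjusted p = 3.3e-10), and Kif20b, a kinesin of late mitosis, at 78.5, 65.2 and 61.7 against 176, 164 and 154 (−1.26 ± 0.124, adjusted p = 1.1e-08). The 3 that rose were Prc1, Cenpf and Nuf2. Past the 2-fold threshold were 1 member of the MITF/TFE3 DKO, Mki67, and 4 of the MITF/TFEB DKO, Cdc25b, Kif20b, Kif11 and Birc5, where 5.87% and 13.7% of all genes passed it.

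The TKO was split. Against parental cells 12 members were higher and 10 lower, close to the shares of all genes, 28.3% and 27.9%, with a median of 0.035. The largest rise was that of Prc1, which bundles the antiparallel microtubules of the midzone, at 573, 559 and 547 against 294, 286 and 264 (0.99 ± 0.0854, adjusted p = 1.0e-09). Cenpf, a kinetochore protein, followed at 407, 395 and 400 against 210, 199 and 208 (0.96 ± 0.123, adjusted p = 6.0e-07). The largest falls were Kif20b at 80.0, 77.1 and 78.1 (−1.06 ± 0.124, adjusted p = 1.5e-07) and Pttg1, securin, at 81.8, 70.0 and 79.6 against 145, 160 and 146 (−0.96 ± 0.119, adjusted p = 3.9e-07). Only Kif20b passed the 2-fold threshold, which 14.7% of all genes passed. All 7 comparisons with parental cells share its 3 libraries. Ccna2, Aurkb and Ncaph were called in none of them.

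**Figure D2:**
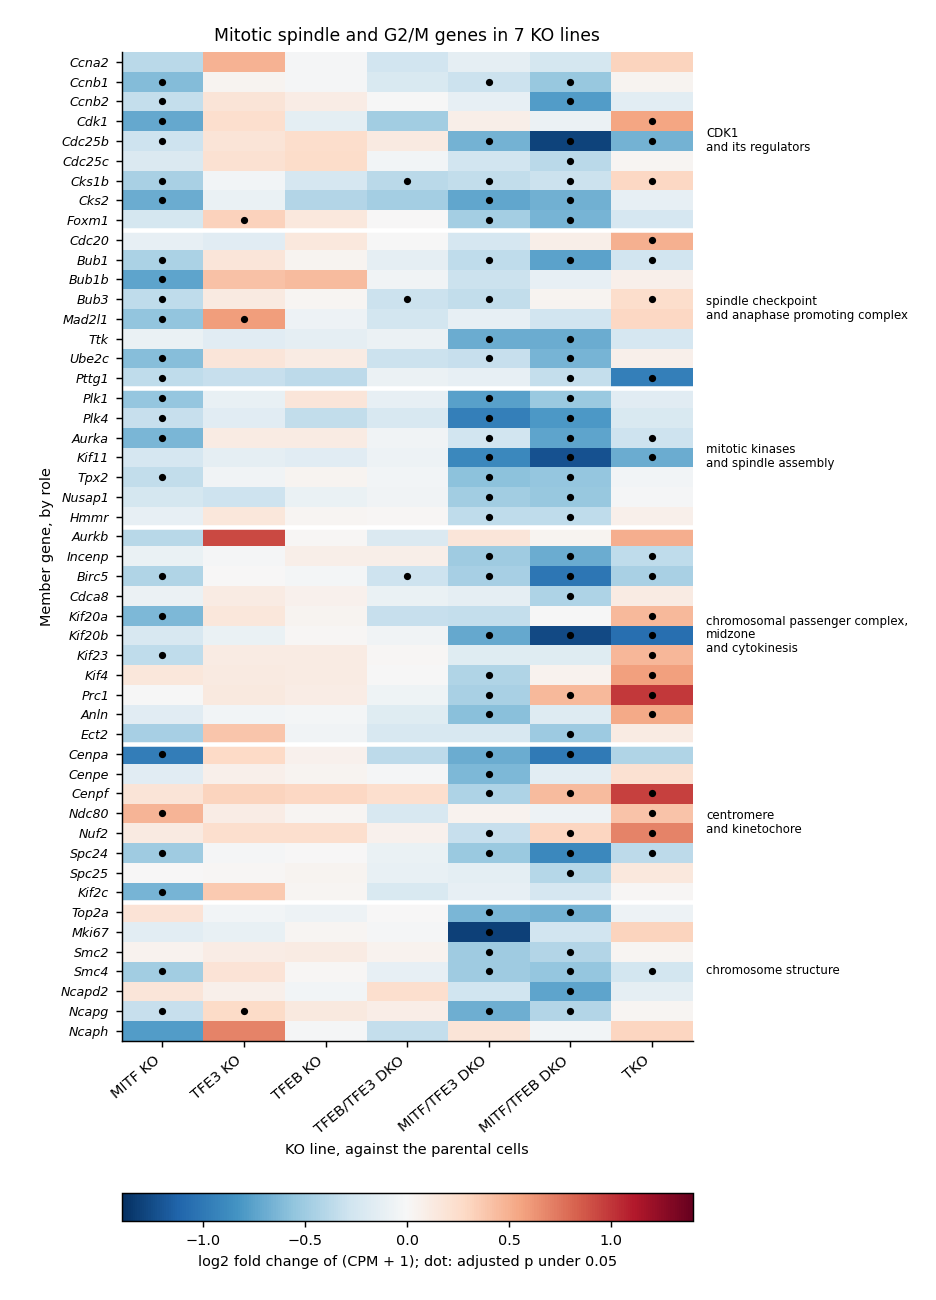
log2 fold change of each of the 50 members (rows, by role) in each KO line against parental cells (columns); a dot marks an adjusted p under 0.05. The columns of the MITF KO and both MITF double KOs hold 24, 32 and 31 dots on lower values, that of the TKO 12 on higher and 10 on lower ones, and that of the TFEB KO none.

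Set over all lines, the 4 lines without MITF had 35 members lower and 2 higher than the 4 lines with it (33.7% of all genes lower, 35.1% higher), with a median of −0.30. The 2 that were higher were Ndc80 (0.24 ± 0.0393, adjusted p = 1.1e-05) and Prc1 (0.21 ± 0.0427, adjusted p = 1.9e-04). Cdc25b (−0.87 ± 0.0519, adjusted p = 6.9e-13) and Kif20b (−0.78 ± 0.0620, adjusted p = 1.1e-10) showed the largest difference. These p-values measure the spread of libraries within lines, not the spread between lines. The double KOs without MITF and the TKO derive from the MITF KO, so the 4 lines are not independent. They were not alike either, since the TKO had 12 members higher and 10 lower than parental cells. Of the single KOs, the TFE3 KO was compared with the MITF KO, and had 30 members higher and 1 lower (24.4% of all genes higher, 25.9% lower), with a median of 0.42. Condensin subunit Ncaph was at 28.7, 65.2 and 45.4 in the TFE3 KO against 16.5, 12.1 and 17.4 (1.48 ± 0.322, adjusted p = 6.3e-04), and Aurkb, the kinase of the chromosomal passenger complex, at 19.4, 46.0 and 32.8 against 13.9, 10.0 and 11.8 (1.31 ± 0.325, adjusted p = 0.00198). Their 3 TFE3 KO libraries were far apart, yet all lay above those of the MITF KO. The member that was lower was Ndc80 (−0.38 ± 0.0786, adjusted p = 4.0e-04). At least 2-fold higher were 6 members, where 4.85% of all genes were.

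The effect of a further lost factor was followed within the lines without MITF. Adding the loss of TFE3 to the MITF KO moved members both ways: 6 were higher and 19 lower (18.1% and 19.7% of all genes), with a median of −0.095. Cdk1 was higher, at 692, 527 and 572 against 381, 244 and 423 (0.80 ± 0.202, adjusted p = 0.00365), as was Ncaph (0.96 ± 0.322, adjusted p = 0.0225), while Mki67 (−1.16 ± 0.151, adjusted p = 3.7e-06) and Top2a, topoisomerase II alpha, at 552, 817 and 830 against 1259, 1301 and 1278 (−0.83 ± 0.152, adjusted p = 2.1e-04), were lower. Adding the loss of TFEB gave 5 higher and 18 lower (25.1% and 23.9% of all genes), with a median of −0.072. Cdk1 (0.64 ± 0.202, adjusted p = 0.0114) and Bub1b (0.62 ± 0.153, adjusted p = 0.00171) were higher, and Kif20b (−1.04 ± 0.124, adjusted p = 3.0e-07) and Cdc25b (−1.0 ± 0.104, adjusted p = 3.4e-08) lower. Compared directly, the MITF/TFEB DKO had 10 members higher and 11 lower than the MITF/TFE3 DKO (25.5% and 22.4% of all genes). Mki67 (1.03 ± 0.151, adjusted p = 6.1e-06) and Prc1 (0.91 ± 0.0854, adjusted p = 8.8e-09) led those that were higher, and Ccnb2, cyclin B2 (−0.66 ± 0.114, adjusted p = 5.5e-05), and Cdc25b (−0.64 ± 0.104, adjusted p = 2.5e-05) those that were lower.

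Between the TKO and the MITF/TFEB DKO nearly the whole list was higher in the former. Of the 50 members 37 were higher and 1 lower, where 5.41% of all genes were higher and 6.99% lower, and the log2 fold change was above 0 for 49. The changes were moderate and mostly alike, with a median of 0.51 and a range from −0.63 to 0.72, so that none reached 2-fold. Ube2c, the ubiquitin-conjugating enzyme of the anaphase promoting complex, had the largest difference, at 277, 274 and 272 in the TKO against 151, 181 and 169 (0.72 ± 0.120, adjusted p = 1.7e-04). Anln, an actin-binding protein of the cleavage furrow, was at 67.9, 79.8 and 73.1 against 47.6, 39.9 and 46.1 (0.71 ± 0.146, adjusted p = 0.00153). Pttg1 was the only member that was lower (−0.63 ± 0.119, adjusted p = 6.7e-04). The 12 members without a call were Aurkb, Bub1b, Bub3, Cdc25c, Cenpa, Cks2, Incenp, Kif20b, Kif2c, Ncaph, Plk1 and Ttk, all with a higher mean in the TKO.

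Against the MITF/TFE3 DKO the TKO had 31 members higher and 2 lower (26.6% and 24.2% of all genes), with a median of 0.39. Mki67 was at 309, 317 and 334 in the TKO (1.62 ± 0.151, adjusted p = 6.1e-09) and Prc1 differed by 1.45 ± 0.0854 (2.1e-12). Pttg1 (−0.84 ± 0.119, adjusted p = 3.4e-06) and Kif20b (−0.34 ± 0.124, adjusted p = 0.0248) were the 2 that were lower. At least 2-fold higher were 5 members, where 5.69% of all genes were. Against the TFEB/TFE3 DKO, which differs from the TKO in having MITF, 17 were higher and 8 lower (30.1% and 27.7% of all genes), with a median of 0.16. Prc1 (1.06 ± 0.0854, adjusted p = 3.4e-10) and Cdk1 (1.03 ± 0.202, adjusted p = 1.5e-04) were the highest, and Kif20b (−1.01 ± 0.124, adjusted p = 3.1e-07) and Pttg1 (−0.87 ± 0.119, adjusted p = 1.5e-06) the lowest. The TKO libraries enter all 3 of these comparisons.

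Loss of TFE3 could be followed in 4 backgrounds, the last being the TFEB KO, which was added after the values had been seen. There, in the TFEB/TFE3 DKO against the TFEB KO, 1 member was lower and none higher (0.933% and 1.25% of all genes), with a median of −0.14 and 8 of 50 log2 fold changes above 0. It was Bub3, a protein of the spindle checkpoint, at 314, 343 and 294 against 358, 457 and 379 (−0.32 ± 0.0861, adjusted p = 0.0498). The libraries do not overlap for it, but the p lies just under the threshold. No member was called by edgeR (0) or when the pairing of replicate numbers was fitted as a block (0), and the number was 3 without TFEB KO library 1 and 4 without TFEB/TFE3 DKO library 2. At an unadjusted p under 0.05 there were 10 lower and 1 higher. The share of all genes under that looser rule was not counted, and the shares above are for the adjusted p.

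Whether the effect of TFE3 loss differed between backgrounds was tested as an interaction for 3 pairs of them. Between the MITF KO and the parental background the effect of TFE3 loss differed for 14 members, 13 of them toward lower and 1 toward higher values without MITF (10.0% and 10.2% of all genes). Mki67 (−1.06 ± 0.214, adjusted p = 9.4e-04) and Cenpf (−0.92 ± 0.173, adjusted p = 4.7e-04) differed most. The effect of TFEB loss differed between the same backgrounds for 18 members, 14 toward lower and 4 toward higher values (17.4% and 17.7% of all genes), with Cdc25b (−1.26 ± 0.147, adjusted p = 4.4e-07) and Kif20b (−1.06 ± 0.175, adjusted p = 5.1e-05) first. Between the MITF/TFEB DKO and the MITF KO background, a comparison added after the values had been seen, TFE3 loss differed for 32 members, 31 toward higher and 1 toward lower values (15.5% and 13.1% of all genes). Mki67 (1.74 ± 0.214, adjusted p = 1.6e-06) and Top2a (1.41 ± 0.215, adjusted p = 2.9e-05) differed most there. Between the MITF/TFEB DKO and the TFEB KO background, also added later, it differed for 32 members, again 31 toward higher and 1 toward lower values (4.18% and 5.54% of all genes), with Ube2c (1.14 ± 0.170, adjusted p = 5.5e-05) and Cenpa (1.0 ± 0.271, adjusted p = 0.0192) first. These contrasts share lines with the comparisons above.

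**Figure D3:**
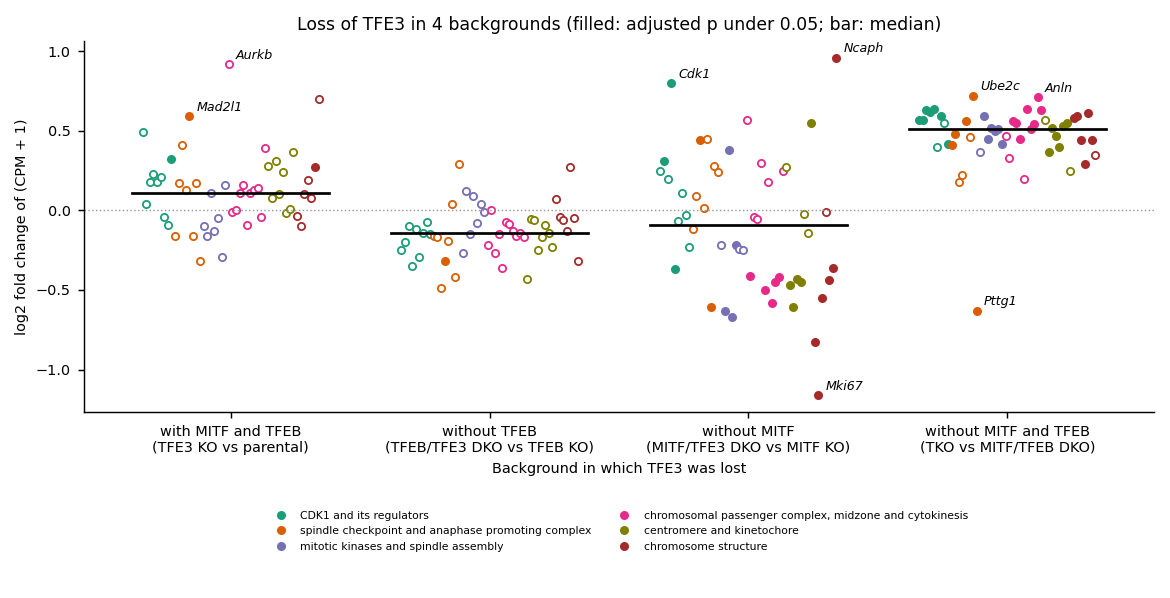
log2 fold change of each member after loss of TFE3 in parental cells, in the TFEB KO, in the MITF KO and in the MITF/TFEB DKO, with the members ordered by role; each point is 1 gene, filled where its adjusted p is under 0.05, and the bar is the median. In the MITF/TFEB DKO background 49 of 50 points lie above 0, in the MITF KO background 19 and in the TFEB KO background 8.

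By role, CDK1 and its regulators (9 members) were low in the MITF KO and both double KOs, with 6, 5 and 7 lower and none higher, and had 2 higher and 1 lower in the TKO. Of all genes, 17.8% were lower in the MITF KO and 21.7% and 27.3% in its double KOs with TFE3 and TFEB. In the TKO 28.3% were higher and 27.9% lower, so the counts of members there do not exceed these shares. Cdk1 itself was at 529, 539 and 619 in parental cells and at 381, 244 and 423 in the MITF KO (−0.72 ± 0.202, adjusted p = 0.00698). Its values in the MITF/TFE3 DKO overlapped the parental ones, as did the 457, 570 and 574 of the MITF/TFEB DKO, while the TKO was above both, at 762, 834 and 865 (0.55 ± 0.202 against parental cells; 0.0256). Cyclin B1, its partner at mitotic entry (Ccnb1), was at 163, 162 and 163 in parental cells, 113, 93.9 and 113 in the MITF KO (−0.61 ± 0.0939, adjusted p = 1.9e-05), 101, 125 and 113 in the MITF/TFEB DKO and 174, 159 and 169 in the TKO. For Ccnb1, then, the TKO overlapped parental cells and the MITF/TFEB DKO did not. Cdc25b remained low in the TKO, at 98.7, 96.6 and 96.0 (−0.66 ± 0.104, adjusted p = 9.9e-06). Foxm1, the transcription factor of this programme, was lower in both double KOs (−0.48 and −0.65) and not called in the MITF KO (−0.25 ± 0.102, adjusted p = 0.0554) or the TKO (−0.23 ± 0.102, adjusted p = 0.0599). All 9 were higher in the TFE3 KO than in the MITF KO, where 24.4% of all genes were.

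Of the 8 genes of the spindle checkpoint and the anaphase promoting complex, 6 were lower in the MITF KO, 4 in each double KO, and 2 in the TKO, where 2 others were higher. The shares of all genes that were lower were 17.8% in the MITF KO and 21.7% and 27.3% in its double KOs with TFE3 and TFEB. The TKO counts are near the shares of all genes there, 27.9% lower and 28.3% higher. Ube2c was at 243, 260 and 282 in parental cells and at 188, 146 and 187 in the MITF KO (−0.60 ± 0.120, adjusted p = 4.0e-04). Cdc20, the activator of the anaphase promoting complex, was not called in the lines without MITF other than the TKO, where it stood at 280, 262 and 253 against 188, 202 and 175 (0.50 ± 0.107, adjusted p = 4.2e-04). Ttk, the kinase MPS1, was lower in both double KOs, by the same −0.70 ± 0.156, and at 86.0, 97.0 and 85.8 in the MITF KO lay within the parental range of 83.0 to 105. Pttg1, whose product is destroyed at anaphase onset, went its own way, with its lowest values of all 8 lines in the TKO.

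The 7 genes of mitotic kinases and spindle assembly were the only role of which every member was lower in both double KOs. In the MITF KO 4 were lower, and in the TKO 2, the last near the share of all genes. Lower among all genes were 17.8% in the MITF KO, 21.7% and 27.3% in its double KOs with TFE3 and TFEB, and 27.9% in the TKO. Aurka, the kinase of the spindle poles, varied little between libraries, at 129, 128 and 126 in parental cells and 78.6, 78.3 and 87.4 in the MITF KO (−0.64 ± 0.0706, adjusted p = 1.6e-07), and at 109, 105 and 99.4 in the TKO it lay between them (−0.29 ± 0.0706, adjusted p = 0.00134). Plk1, the main mitotic polo-like kinase, was at 785, 796 and 661 in parental cells, at 403, 534 and 398 in the MITF/TFE3 DKO (−0.76 ± 0.142, adjusted p = 1.9e-04) and at 704, 644 and 659 in the TKO, which is not a call. Kif11, the kinesin that pushes spindle poles apart, remained low in the TKO, at 36.2, 43.3 and 33.6 against 64.7, 61.9 and 58.1 (−0.70 ± 0.149, adjusted p = 3.6e-04). Tpx2 and Hmmr, both of spindle assembly, were the members whose line means ran most closely with the mean of the other 49 (r = 0.94 and 0.95 over the 8 lines).

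The chromosomal passenger complex, midzone and cytokinesis (11 members) were a mixed role. The MITF KO had 3 lower, the MITF/TFE3 DKO 6, the MITF/TFEB DKO 5 with 1 higher, and the TKO 3 with 5 higher. Across all genes, 17.8% were lower for the MITF KO, 21.7% and 27.3% for its double KOs with TFE3 and TFEB, and 27.9% for the TKO. Shares higher were, in that order, 20.1%, 20.2%, 28.8% and 28.3%. The counts of lower members for the MITF KO and the TKO stand near these shares. The 5 that rose in the TKO were the midzone and furrow genes Prc1, Kif4, Kif23, Kif20a and Anln; 2 of the 3 that fell, Incenp and Birc5 (survivin), belong to the passenger complex. The parental libraries held Birc5 at 872, 975 and 902, those of the MITF/TFEB DKO at 463, 457 and 444 (−1.01 ± 0.0831, adjusted p = 5.4e-10) and those of the TKO at 705, 640 and 672 (−0.45 ± 0.0831, adjusted p = 8.6e-05). Prc1 was lower than parental cells in the MITF/TFE3 DKO, at 188, 228 and 201 (−0.45 ± 0.0854, adjusted p = 1.9e-04), and higher in the MITF/TFEB DKO, at 432, 373 and 354 (0.45 ± 0.0854, adjusted p = 1.0e-04). It and Mki67 are thus members whose 2 double KOs stand furthest apart.

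At the centromere and kinetochore (8 members), 3 were lower and 1 higher in the MITF KO, 5 lower in the MITF/TFE3 DKO, 3 lower and 2 higher in the MITF/TFEB DKO, and 1 lower and 3 higher in the TKO. For all genes the shares lower in these lines were 17.8%, 21.7%, 27.3% and 27.9%, and those higher 20.1%, 20.2%, 28.8% and 28.3%. Several of these counts are near those shares. Cenpa was below parental cells in all 3 lines other than the TKO that lack MITF, with 55.3, 66.7 and 75.9 in the MITF/TFEB DKO (−0.99 ± 0.192, adjusted p = 1.4e-04), and at 100, 93.9 and 98.0 in the TKO it had no overlap with parental cells and no call (−0.42 ± 0.192, adjusted p = 0.0678). The 4 subunits of the NDC80 complex did not move together. Ndc80 and Nuf2 were higher in the TKO (0.40 ± 0.0786 and 0.70 ± 0.0911), Spc24 was lower (−0.37 ± 0.0812, adjusted p = 5.4e-04) and Spc25 was not called (0.15 ± 0.117, adjusted p = 0.275). Spc24 was lower in all 4 lines without MITF, with the lowest values, 67.5, 74.2 and 67.0, in the MITF/TFEB DKO.

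Among the 7 genes of chromosome structure, 2 were lower in the MITF KO, 5 in each double KO and 1 in the TKO, and none was higher. Beside these stand 17.8% of all genes lower in the MITF KO and 21.7% and 27.3% in its double KOs with TFE3 and TFEB. The TKO had 27.9% of all genes lower and 28.3% higher. Smc4, a core condensin subunit, was the member lower in all 4, at 676, 681 and 700 in parental cells, 506, 462 and 497 in the MITF KO (−0.49 ± 0.0884, adjusted p = 1.3e-04) and 594, 568 and 561 in the TKO (−0.26 ± 0.0884, adjusted p = 0.0172). Its partner Smc2 was at 455, 430 and 455 in the MITF KO against 433, 438 and 422 (0.051 ± 0.101, adjusted p = 0.723) and fell in both double KOs. Mki67 was at 260, 182 and 204 in the MITF/TFEB DKO, which overlapped parental cells (−0.27 ± 0.151, adjusted p = 0.131), so that its fall was seen in the MITF/TFE3 DKO and not called in the other lines.

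**Figure D4:**
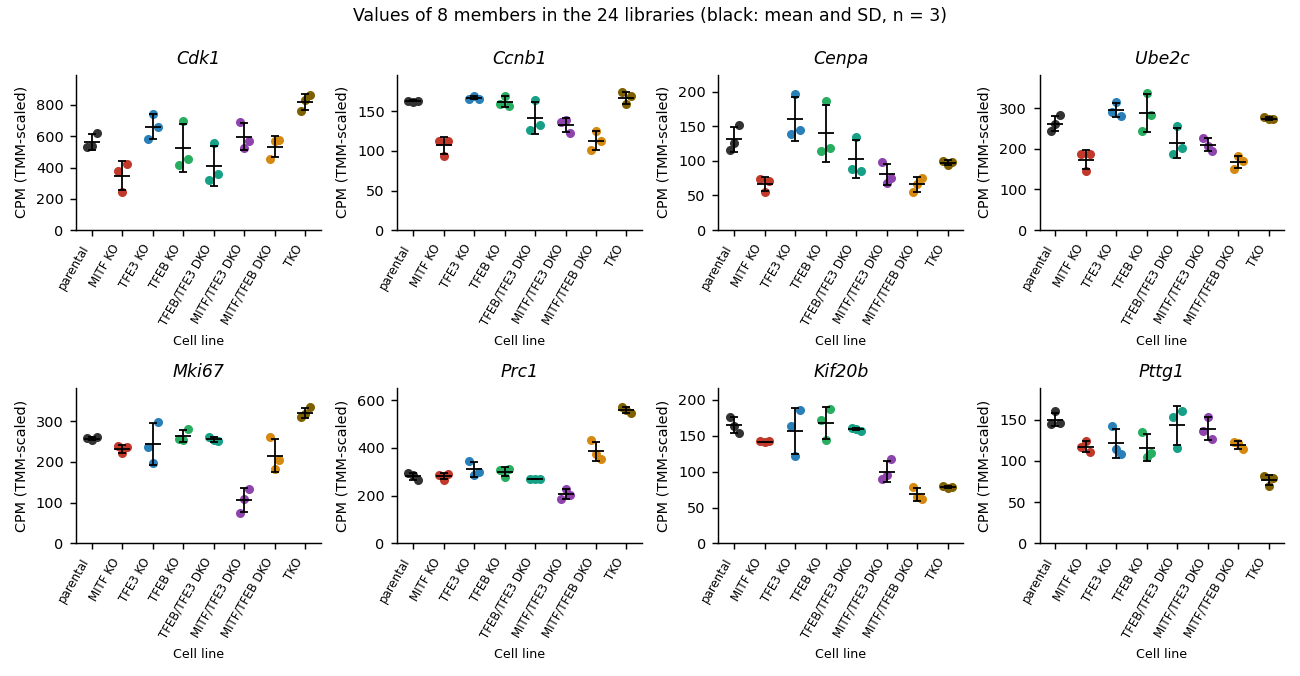
CPM in each library for Cdk1, Ccnb1, Cenpa, Ube2c, Mki67, Prc1, Kif20b and Pttg1, by line; coloured points are libraries and black marks the mean and SD (n = 3). Ube2c falls in the MITF KO and stands at 272 to 277 in the TKO, Mki67 is lowest in the MITF/TFE3 DKO at 75.4 to 133, and Pttg1 is lowest in the TKO at 70.0 to 81.8.

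Over the 8 line means the members ran together, with a median correlation of 0.54 between pairs of members against 0.00074 between pairs of the 9539 genes whose mean reached a CPM of 5. Within lines the median showed no such difference: the median correlation of the deviations of the 24 libraries from their line means was 0.010 for members and 0.0099 for those genes. A median near 0 does not show that no members moved together or in opposite directions in some lines. Libraries and lines are shared by all genes, so these correlations are descriptions. The members least like the rest over lines were Pttg1 (r = −0.29 with the mean of the others), Ndc80 (0.033) and Prc1 (0.30).

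Some members lie in stretches of chromosome where neighbouring genes shifted as well. The log2 fold change of each member was set beside the median of the 100 genes nearest to it on its chromosome. In the MITF/TFEB DKO 8 members and in the TKO 10 had neighbours whose median was shifted by at least 0.3 from parental cells, with medians down to −0.76 and up to 0.73, whereas between the TKO and the MITF/TFEB DKO no window was shifted that far (−0.05 to 0.09). On chromosome 19 these were Kif20b (neighbours −0.70 and −0.67, for the MITF/TFEB DKO and then the TKO), Kif11 (−0.71 and −0.76) and Incenp (−0.54 and −0.55). On chromosome 1, Cenpf (0.66 and 0.73) and Nuf2 (0.62 and 0.64) had neighbours that were higher. Less its neighbours, Kif20b differed by −0.57 and −0.39, and Kif11 by −0.51 and 0.06. Cenpf differed by −0.23 and 0.22, and Nuf2 by −0.32 and 0.06. For Prc1 the neighbours were at 0.061 and 0.073, leaving 0.39 and 0.92, and for Pttg1 at −0.20 and −0.17, leaving −0.12 and −0.79. Over all 50, the median less neighbours was −0.26 for the MITF KO, −0.35 for its double KO with TFE3, −0.38 for that with TFEB, 0.12 for the TKO and 0.49 between the TKO and the MITF/TFEB DKO. The part of the copy number of these stretches was not tested.

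**Figure D5:**
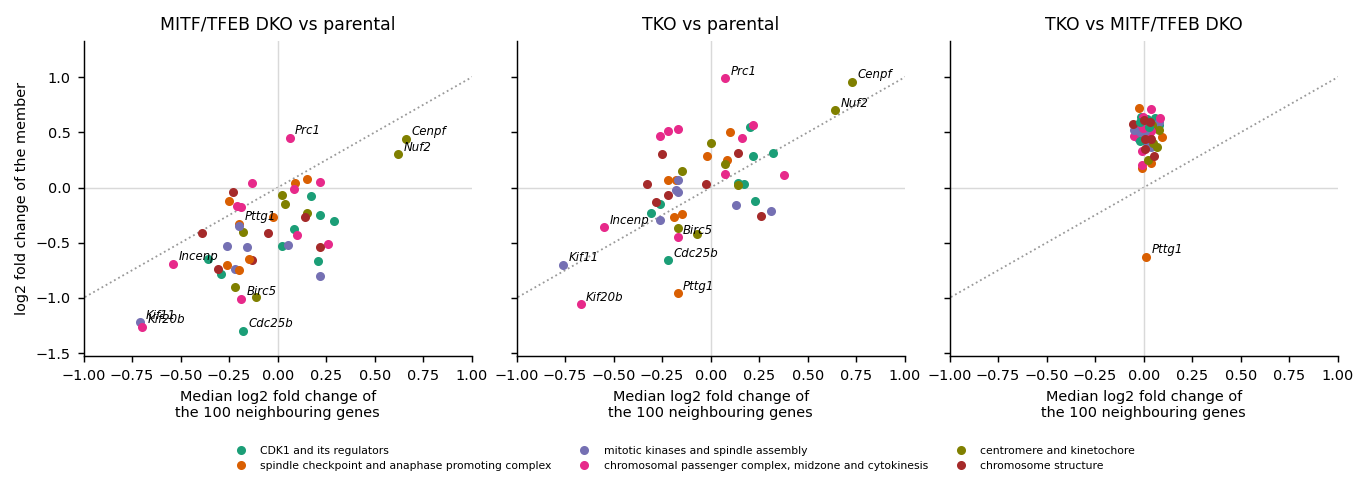
log2 fold change of each member (vertical) against the median of its 100 neighbouring genes (horizontal), in 3 comparisons named above the panels, each point being a member. In the right panel, of the TKO against the MITF/TFEB DKO, the neighbours lie between −0.05 and 0.09 while 49 of 50 members lie above 0.

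Reads at 3′ ends can also come from a neighbour or a copy. In the GENCODE annotation of GRCm39 13 members had a gene on the opposite strand at their 3′ end. Only 1, Foxm1, had genes on the same strand there (Gm44596 and Tex52), beside Gm15862 on the opposite one, so its values above are less certain. Sequence of 50 bases that also occurs in a transcript of another annotated gene was found in the last 300 bases of 7, and 43 had none. The share was largest in Cenpf and Spc24 (19.1% of positions each). Cks1b (10.4%), Ube2c and Ndc80 (7.97% each), Nuf2 (5.58%) and Tpx2 (1.99%) followed. The levels of these 7 are less certain.

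The members were also grouped by the promoter elements, with no test of a difference between the groups. When the TKO was compared with the MITF/TFEB DKO, the 27 members with both a CHR and a CCAAT box had a median of 0.54 with 22 higher, the 14 with a window that lacked at least 1 of them had 0.49 with 9 higher and 1 lower, and the 9 without a window had 0.45 with 6 higher. All genes had a median of 0.0084 in that comparison, with 5.41% higher and 6.99% lower. In the MITF KO against parental cells the medians were −0.29, −0.34 and −0.38, and in the MITF/TFEB DKO −0.41, −0.30 and −0.54. They lay further apart in the TFE3 KO against the MITF KO, at 0.40, 0.20 and 0.58.

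Other genes of the cell cycle were taken from lists, with the number higher and lower by the same test. Over all genes, the shares higher and lower were 20.1% and 17.8% in the MITF KO, 20.2% and 21.7% with TFE3 lost as well, 28.8% and 27.3% with TFEB lost as well, and 28.3% and 27.9% in the TKO. Of 129 further mitotic genes, the MITF KO had 5 higher and 34 lower. Its double KO with TFE3 had 5 and 68, that with TFEB 9 and 71, and the TKO 33 and 28, the last near the shares of all genes. Between the TKO and the MITF/TFEB DKO 50 were higher and 1 lower (median 0.36), where 5.41% and 6.99% of all genes were. Their largest fall was that of Cenpw, a centromere protein, in the MITF/TFEB DKO (−1.87 ± 0.108, adjusted p = 1.2e-12). Of 65 genes of DNA replication and S phase, the MITF KO had 2 higher and 37 lower (median −0.37). Its double KO with TFE3 had 2 and 39 (−0.40), that with TFEB 4 and 46 (−0.55) and the TKO 6 and 28 (−0.22). In the TKO against parental cells the S phase genes were thus mostly on the lower side, where the 50 members were split 12 to 10. Against the MITF/TFEB DKO the TKO had 16 S phase genes higher and none lower, with a median of 0.23. In the TFE3 KO 13 of them were higher and none lower than in parental cells (4.50% and 7.78% of all genes). Mcm10, a replication factor, fell in all 4 lines without MITF (−1.78, −1.66, −1.90 and −1.73, each with an SE of 0.108).

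Of 32 regulators of this programme in the table, the MITF KO had 5 higher and 5 lower. Its double KO with TFE3 had 8 and 11, that with TFEB 9 and 10, and the TKO 12 and 7, against the shares of all genes given for the mitotic genes. They are given as counts only. Cdkn1a, the CDK inhibitor p21, was at 789, 822 and 768 in parental cells. It was higher at 1019, 1038 and 949 in the MITF KO (0.34 ± 0.102, adjusted p = 0.0118) and in both its double KOs (0.62 ± 0.102 each), while the TKO, at 969, 914 and 822, had no call. It was lower in the lines that kept MITF, with differences of −0.95 ± 0.102 for the TFE3 KO (434, 347 and 462), −1.0 ± 0.102 for the TFEB KO and −0.53 ± 0.102 when both were lost. The difference of 1.06 ± 0.0510 between the 4 lines without MITF and the 4 with it (adjusted p = 1.3e-14) thus holds changes of both kinds. Its p also measures the spread of libraries within lines. Ccnd1, cyclin D1 of the G1 phase, was at 417, 409 and 461 in parental cells, 196, 187 and 209 in the MITF KO (−1.11 ± 0.0958, adjusted p = 2.7e-09), 133, 130 and 132 in the MITF/TFEB DKO (−1.70 ± 0.0958, adjusted p = 8.2e-13) and 230, 242 and 256 in the TKO. E2f7, a repressor of E2F targets, was higher in all 4 lines without MITF and highest in the TKO, at 65.7, 66.8 and 66.9 against 20.9, 20.7 and 21.2 (1.62 ± 0.112, adjusted p = 2.3e-11). Mybl2, which encodes B-MYB, was low throughout, with a parental mean of 5.92 ± 0.532.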

How the data were processed

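RNA of 8 B16-F10-luc2 lines, 3 libraries each, was sequenced from 3′ ends (QuantSeq Forward). Per the submitters' processing notes the authors used FastQC 0.11.9, Trim Galore 0.6.5, cutadapt 2.10, STAR 2.7.8a on mm39 and edgeR; the counting tool and annotation are not given in the sources used here. They deposited 12010 genes as a normalized signal, CPM scaled by TMM factors, a scale from which whole reads were recovered (99.99% or more of the values in each library whole within 0.1); sums differ between columns, so the values were not plain CPM as assumed, and the same test was kept. limma 3.58.1 compared the lines on the scale of log2(CPM + 1), all 24 libraries in 1 fit (16 residual degrees of freedom, variance trend), with Benjamini-Hochberg adjustment over 12010 genes; a call is an adjusted p under 0.05, and fold changes on this scale understate those of low genes. The alternatives were the quasi-likelihood test of edgeR 4.0.16 on those reads, other pseudocounts (0.25 and 5), a filter (mean CPM of at least 5), other scalings, only the libraries compared, a replicate block and each library left out. The fit was tested on simulated data. The sources do not say that libraries were separate cultures, so p-values measure the spread between these libraries, which may be technical; no 2 libraries agreed within sampling noise. Members and lists were chosen with earlier results of these data known. In each comparison at most the 2 called members with the largest change in each direction were named by rule; others were named by role, some after their values were seen. R 4.3.3, Python 3.11.15, numpy 2.4.6, pandas 2.3.3 and matplotlib 3.10.9 were used.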

Additional observations from a re-analysis of the deposited data

Results flagged for a closer look

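Differences in effect between backgrounds passed the test of the difference itself (limma, adjusted p under 0.05). For loss of TFE3 without MITF less its effect with MITF, 13 members were lower and 1 higher (10.0% and 10.2% of all genes), led by Mki67 (−1.06) and Cenpf (−0.92), both log2. For loss of TFEB without MITF less its effect with MITF, 14 were lower and 4 higher (17.4% and 17.7% of all genes), led by Cdc25b (−1.26) and Kif20b (−1.06). For loss of TFE3 without MITF and TFEB less its effect without MITF alone, a comparison added after the values were seen, 31 were higher and 1 lower (15.5% and 13.1% of all genes), led by Mki67 (1.74) and Top2a (1.41). For the same less its effect without TFEB alone, also added later, 31 were higher and 1 lower (4.18% and 5.54%), led by Ube2c (1.14) and Cenpa (1.0). Each line is a clone, and clone and lost gene cannot be told apart.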

How the results depend on the processing

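Of 321 alternative values of the number of members changed in the 20 comparisons, 294 were within 1.5 times the value given and 0 had a member called in the opposite direction. The exceptions were in comparisons among lines that kept MITF. With only the libraries compared, the TFE3 KO had 0 and the TFEB/TFE3 DKO 1 member changed, in place of 3 each; with quantile normalization the TFEB KO had 1 in place of 0 and the TFEB/TFE3 DKO 0. With 1 library left out, the TFE3 KO had 0 (without parental library 2 or its own library 2) to 7 (without its library 1), with 1 without parental library 1 and 5 without its library 3. The TFEB KO had 0 to 2 (without its library 1). The TFEB/TFE3 DKO had 0 (without parental library 2 or 3 or its own library 1 or 3) to 6 (without its library 2). The TFEB/TFE3 DKO against the TFEB KO had 1, and 0 with a pseudocount of 0.25, by edgeR, with other scalings, with the replicate block or with only the libraries compared, and 0 to 4 with 1 library left out. Elsewhere, with 1 library left out, the numbers ran from 18 to 23 in the MITF KO (25 with all libraries) and 30 to 33 in the MITF/TFE3 DKO (32). They ran from 31 to 33 in the MITF/TFEB DKO (34) and 17 to 20 in the TKO (22). Between the TKO and the MITF/TFEB DKO they were 27 to 33 (38), and 26 of those 38 calls held under every alternative. The other settings gave 24 to 33 in the MITF KO, 27 to 32 in the MITF/TFE3 DKO and 33 to 34 in the MITF/TFEB DKO. They gave 22 to 31 in the TKO and 35 to 44 for the TKO against the MITF/TFEB DKO. Over all lines same-numbered libraries deviated together little (mean correlation 0.022, other numbers −0.013), but in 3 of 28 pairs of lines every correlation was over 0.1: the TFEB KO with the TFEB/TFE3 DKO (lowest 0.39), the TFE3 KO with the MITF/TFEB DKO (0.29) and the MITF KO with the MITF/TFE3 DKO (0.16). With the replicate number as a block, the MITF KO had 26 members changed, the TKO 22 and the TKO against the MITF/TFEB DKO 38, and no other number moved by over 1.5 times. Scaling moved the median of all genes by less than 0.1. Members with low values, such as Cks2 and Aurkb, still had at least 94 reads in every library, and the part of depth in their spread was not tested.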

Other observations

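Some members differed widely between the libraries of 1 line. In the TFE3 KO, Aurkb stood at 19.4, 46.0 and 32.8 and Ncaph at 28.7, 65.2 and 45.4. In the TFEB KO, Aurkb stood at 9.80, 25.5 and 16.4 and Ncaph at 17.7, 41.8 and 24.9. Cdk1 was at 415, 700 and 456 in the TFEB KO and at 322, 557 and 356 in the TFEB/TFE3 DKO, and Cenpa at 114, 187 and 118 and at 88.4, 135 and 85.8. In these cases the second library was the highest, while Top2a was lowest in the second library of these lines, the TFE3 KO having 1191, 866 and 1285, the TFEB KO 1190, 887 and 1171 and the TFEB/TFE3 DKO 1158, 1002 and 1232. These genes were picked after their values were seen. Lines without MITF also had such spreads, with Aurkb at 25.0, 11.4 and 20.3 in the MITF/TFE3 DKO and 11.8, 15.4 and 23.6 in the MITF/TFEB DKO, and Cdk1 at 381, 244 and 423 in the MITF KO. The libraries of the TKO were closer together for 2 of these genes, with Cdk1 at 762, 834 and 865 and Cenpa at 100, 93.9 and 98.0.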
